A study of Rattus norvegicus with 6 samples.

Results

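Potassium channel genes were described across the cells of the rat hippocampus. The 87 genes were chosen by symbol alone, as those made of Kcn, a family letter code and a number, with Kcnj10 left out, from 30452 genes in the matrix. They code for pore-forming subunits of inward rectifiers, two-pore, voltage-gated, calcium-activated and sodium-activated channels, and for silent and accessory subunits. The series holds single-cell RNA-seq (10x 3′ chemistry, which counts unique molecular identifiers, UMIs) of hippocampi from male rats, with 3 control samples and 3 irradiated samples taken 2 months after 20 Gy to the whole brain. The sources used here do not give strain or age. The deposited matrix pools 58078 barcodes with suffixes 1 to 6, and 0 of these 6 libraries could be tied to a labelled sample. The libraries are therefore given one by one, no irradiated group was compared with a control group, and no p-value is reported.

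Potassium channels set the resting membrane potential and end action potentials, and in glia they carry the potassium that neurons release. Inward rectifiers and two-pore channels conduct at rest. Voltage-gated Kv channels open on depolarisation, and KCNN channels open when calcium rises inside the cell. In immune cells, potassium efflux keeps the membrane negative during calcium entry and is a known step of inflammasome activation. Silent subunits conduct only together with other Kv subunits, and accessory subunits change the gating or surface level of a pore.

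After filtering and removal of scored doublets, 45393 cells were kept, with a median of 4993 UMIs and 1898 genes. Library totals ran from 46853113 to 62094407 UMIs over all deposited barcodes. Cells were clustered without the channel genes and named from markers, and 9 classes with at least 100 cells were compared. These were microglia-like cells (21682), a myeloid class led by Clec7a and Lyz2 that met no marker name (7840), astrocyte-like cells (11954), 903 mature and 148 precursor cells of the oligodendrocyte line (called mature oligodendrocyte-like and precursor-like), T or NK-like cells (916), neuroblast-like cells (147), a cycling cluster (239) and neutrophil-like cells (200). Tmem119, a microglia marker, was at 1091 CPM (counts per 1000000 UMIs of the class) in microglia-like cells and 109 CPM in the Clec7a Lyz2 class, and mature oligodendrocyte-like cells had the myelin gene Mbp at 5829.7 CPM. Mature neurons were rare, with a neuron-like cluster of 42 cells that is not compared here. Clusters 18 (709 cells) and 28 (146 cells) met no marker name and were also not compared. In cluster 28, 13 of 13 astrocyte and 9 of 12 microglia markers were at least 2-fold above the median of all clusters. The Clec7a Lyz2 class joins unnamed clusters 3, 11, 13, 19, 20 and 29, whose top score was for border macrophage markers. Clusters 19 and 20 had other leading genes, but carried Clec7a at 636 and 580 CPM and Lyz2 at 10853 and 13538 CPM. Neutrophil-like cells also carried Clec7a, at 682 CPM against 690 CPM in the Clec7a Lyz2 class. That class reached 50 cells in libraries 4, 5 and 6 only. Library 3 made up nearly all of microglia-like clusters 5, 6 and 16 and astrocyte-like cluster 12, and library 4 nearly all of astrocyte-like cluster 15, so per-library values stand beside each main result. Microglia-like cells of libraries 4, 5 and 6 lay mostly in cluster 4 (1541 of 1662, 1132 of 1381 and 430 of 465 cells), and those of libraries 1, 2 and 3 mostly in other clusters. Among the kept cells, 498 share a barcode sequence with a barcode of another library. A 3′ protocol counts a transcript once, so CPM are not divided by length, but levels of different genes may still depend on the treatment of introns and on the annotation, neither of which is known here. Intervals in parentheses are exact 95% intervals and cover counting error only.

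The channel genes made up 0.0599% of all UMIs in kept cells (156393 UMIs). Of the 87 genes, 68 had at least 20 UMIs over the kept cells and 3 had none. Their summed level was highest in the oligodendrocyte lineage, at 1604 CPM in precursor-like and 1578 CPM in mature oligodendrocyte-like cells, followed by 820.3 CPM in astrocyte-like cells and 631 CPM in the Clec7a Lyz2 class. With a mitochondrial limit of 10% the precursor-like sum was 1285 CPM, and with cells named singly by their top marker score it was 932 CPM, both under the mature oligodendrocyte-like sum. The sum was 411 CPM in microglia-like and 279.5 CPM in T or NK-like cells. Within libraries the sum ran from 1348 to 1718 CPM in mature oligodendrocyte-like cells, from 762 to 881 CPM in astrocyte-like cells and from 343 to 546 CPM in microglia-like cells. These 3 ranges did not overlap. In mature oligodendrocyte-like cells Kcna1 alone made up 1128 CPM of the pooled 1578 CPM, with Kcna6 at 224 CPM. The sum there thus rests mostly on 1 gene and does not describe the set.

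A gene was called high in a class when its CPM was at least 2-fold above the median of the 9 classes, with 5 CPM added to both. Oligodendrocyte precursor-like cells had 29 of the 68 channel genes called high, 42.6% against 20.6% of the 17076 genes that passed the same filter. Astrocyte-like cells had 17, or 25.0% against 14.4% of all genes, and the Clec7a Lyz2 class had 8, or 11.8% against 5.22%. The counts elsewhere were smaller. Microglia-like cells had 5 (7.35% against 4.93% of all genes), T or NK-like cells 6 (8.82% against 6.85%) and neutrophil-like cells 5 (7.35% against 6.79%). The share of channel genes lay below that of all genes in mature oligodendrocyte-like cells (5 genes, 7.35% against 8.67%), neuroblast-like cells (6 genes, 8.82% against 15.1%) and the cycling cluster (4 genes, 5.88% against 7.16%). The median log2 ratio of the channel genes in precursor-like cells was 0.57, against 0.27 over all genes, and in astrocyte-like cells it was 0.05, against 0.03. These are descriptions of pooled cells with no test, and a gene restricted to a rare class can miss the 20-UMI filter. A gene can also pass it only through the class where it is high. Kcnh8, with 20 UMIs over the kept cells and most of them in precursor-like cells, is counted as high there.

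**Figure D1:**
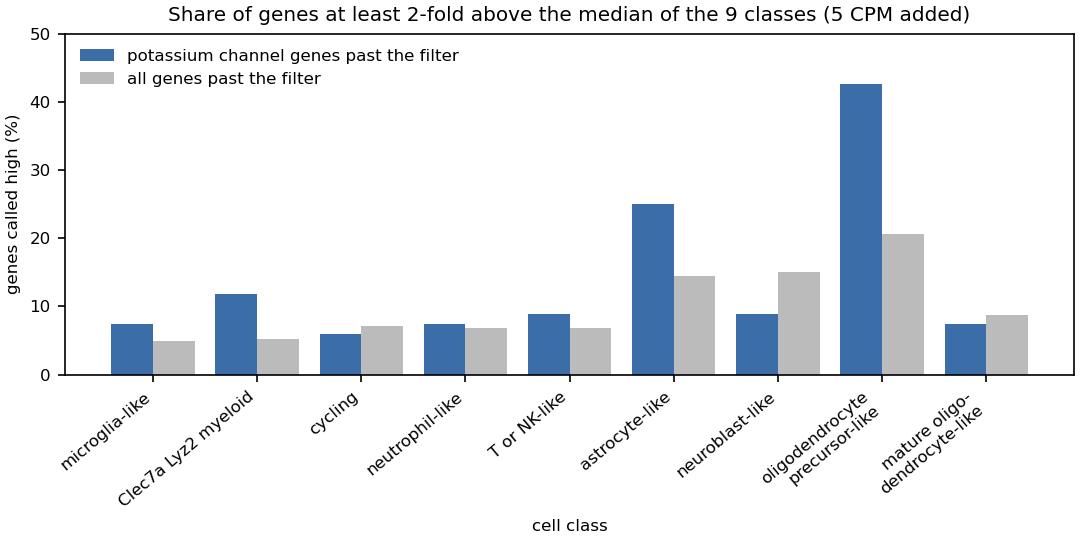
Percent of genes called high in each of the 9 cell classes, for the 68 channel genes and for all 17076 genes past the filter (paired bars). The channel gene bar stands at 42.6% in oligodendrocyte precursor-like cells and 25.0% in astrocyte-like cells, beside 20.6% and 14.4% of all genes.

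Of the 68 genes, 27 were highest in oligodendrocyte precursor-like cells and 16 in astrocyte-like cells. T or NK-like cells held the highest level of 6, and microglia-like, mature oligodendrocyte-like and neuroblast-like cells of 5 each. The Clec7a Lyz2 class held 3, the neutrophil-like class 1 and the cycling cluster 0. The same counts were not made over all genes, so they only describe the set. Some rest on levels under 3 UMIs of the class (3.93 CPM in precursor-like cells), such as Kcnh1 and Kcnh6 at 1.31 CPM there. The highest class stayed the same for 59 of the 68 genes at the 10% mitochondrial limit and for 58 without library 3. It did so for 56 with cells named singly by their top marker score, which leaves out the Clec7a Lyz2 and cycling classes.

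**Figure D2:**
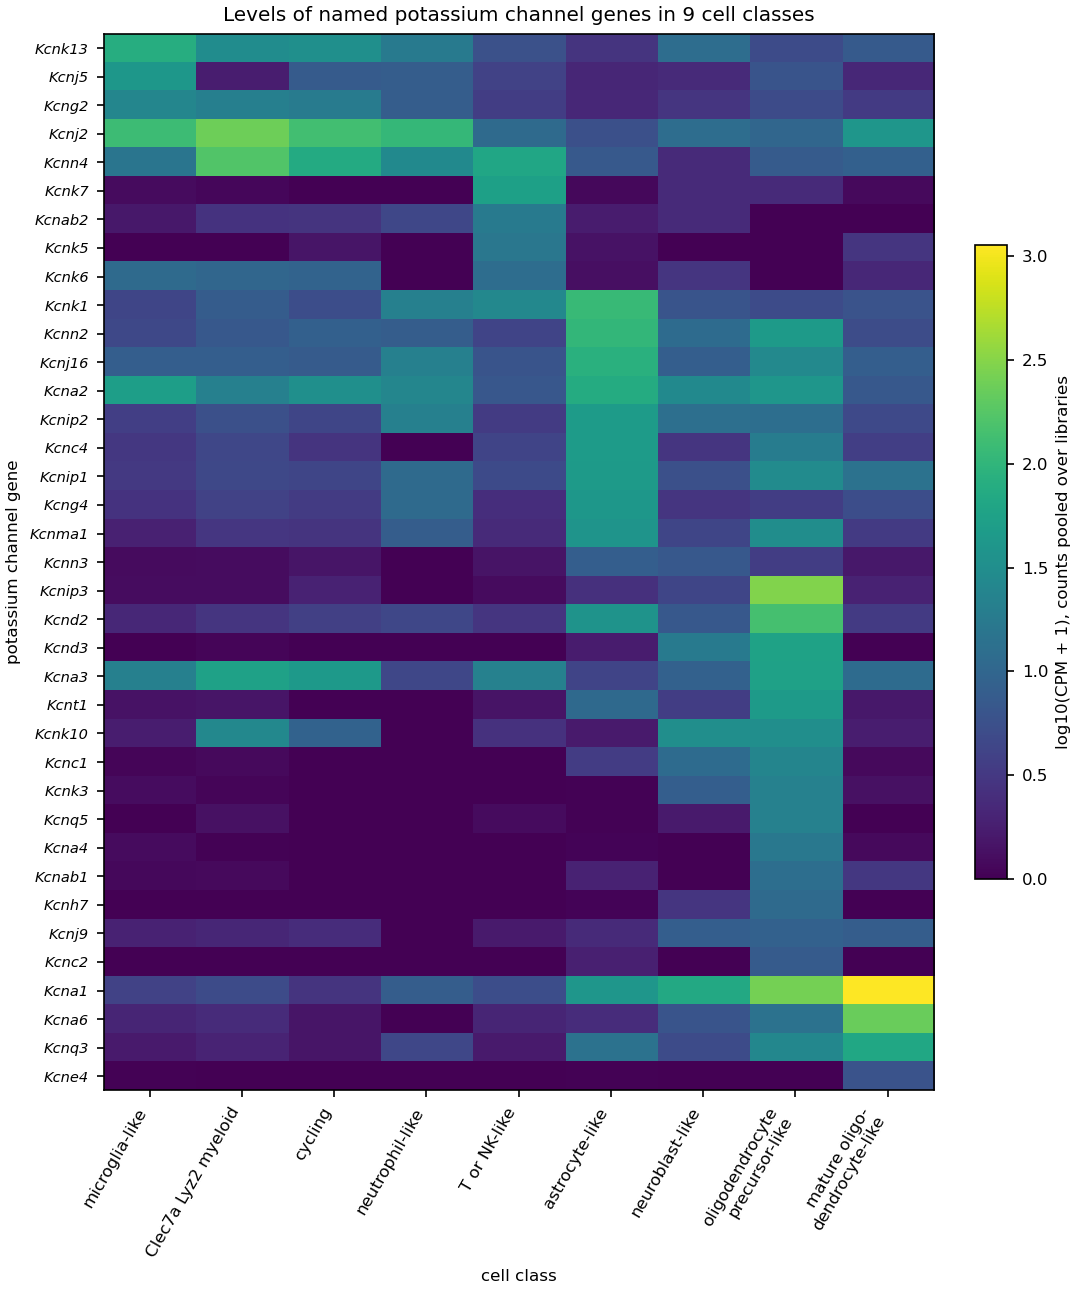
Levels of named channel genes (rows) in the 9 classes (columns) on a log scale of CPM, with counts pooled over libraries. Kcna1 in mature oligodendrocyte-like cells is the highest value, at 1128 CPM.

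Among the inward rectifiers, Kcnj2 and Kcnj16 showed opposite patterns although they are neighbours on rat chromosome 10 among protein-coding genes (RefSeq, GRCr8). Kcnj2 encodes Kir2.1, a strong rectifier that holds the membrane near the potassium equilibrium, and Kcnj16 encodes Kir5.1, which joins with Kir4.1, the product of Kcnj10. Their RefSeq promoter windows, from 250 bases before to 50 bases after the start, are shown because the neighbours differ so much in cell class. Capitals mark GAGGAA or its reverse complement TTCCTC, the core of the motif bound by PU.1, a transcription factor of the myeloid lineage.
Kcnj2, chr10:96559975-96560274 (GRCr8, + strand): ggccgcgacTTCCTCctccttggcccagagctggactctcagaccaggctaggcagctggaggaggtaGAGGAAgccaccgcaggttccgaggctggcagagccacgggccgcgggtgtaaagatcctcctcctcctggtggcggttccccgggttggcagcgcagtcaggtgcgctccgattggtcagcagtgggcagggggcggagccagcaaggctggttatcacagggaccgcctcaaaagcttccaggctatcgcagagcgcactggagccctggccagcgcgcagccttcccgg
Kcnj16, chr10:96517074-96517373 (GRCr8, + strand): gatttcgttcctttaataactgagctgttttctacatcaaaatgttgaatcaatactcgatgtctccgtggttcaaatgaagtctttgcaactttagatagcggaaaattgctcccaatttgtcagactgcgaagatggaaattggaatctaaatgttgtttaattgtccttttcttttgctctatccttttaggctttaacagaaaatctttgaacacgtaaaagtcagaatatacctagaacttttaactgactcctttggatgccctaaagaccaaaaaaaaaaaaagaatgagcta
The Kcnj2 window holds 2 copies of the motif, has 19 CG dinucleotides and is 67% G or C. The Kcnj16 window holds 0 copies, has 6 CG dinucleotides and is 34% G or C. GAGGAA occurs on either strand in 27.6% of 33469 promoter windows of the same length, so a match is only a description.

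Kcnj2 was the leading channel gene of the myeloid classes. In microglia-like cells its level was 110.5, 162, 69.04, 115, 207 and 178 CPM in libraries 1 to 6. In the Clec7a Lyz2 class it was 212, 245 and 248 CPM in libraries 4, 5 and 6. In astrocyte-like cells Kcnj2 stayed between 1.82 and 6.70 CPM over the 6 libraries. Each microglia-like value was above each astrocyte-like value, and the Clec7a Lyz2 class was above the microglia-like class in 3 of 3 libraries that held both. Pooled, Kcnj2 reached 238 CPM (234 to 243) in the Clec7a Lyz2 class and 123 CPM (121 to 125) in microglia-like cells. It was at 134 CPM (119 to 151) in the cycling cluster and 106 CPM (72.2 to 151) in neutrophil-like cells, the latter from 31 UMIs. The border macrophage-like cluster (96 cells) stood at 225 CPM and the endothelial-like cluster (84 cells) at 132 CPM. With each cell thinned to 2000 UMIs, 30.3% of Clec7a Lyz2 cells and 19.7% of microglia-like cells had a Kcnj2 UMI, against 0.855% of astrocyte-like cells.

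Kcnj16 went the other way. In astrocyte-like cells it was at 58.1, 100.4, 55.8, 86.1, 91.6 and 90.4 CPM in libraries 1 to 6, and in microglia-like cells at 4.13, 5.59, 9.16, 10.7, 11.02 and 9.26 CPM. It was higher in astrocyte-like cells in 6 of 6 libraries, with no overlap. Pooled, Kcnj16 was at 86.6 CPM (84.6 to 88.7) in astrocyte-like cells and 26.2 CPM (16.01 to 40.5) in precursor-like cells, and between 5.18 and 7.24 CPM in microglia-like, Clec7a Lyz2, T or NK-like, mature oligodendrocyte-like, neuroblast-like and cycling cells. In microglia-like cells Kcnj16 was 5.58 to 16.4% of the astrocyte-like level of the same library, beside 2.20 to 7.91% for Slc1a2, the gene of an astrocyte glutamate transporter. The part of free RNA in the low Kcnj16 levels was not tested. Kcnj10, which the choice of genes left out, was at 308 CPM in astrocyte-like, 236 CPM in mature oligodendrocyte-like and 195 CPM in precursor-like cells. Kcnj16 was thus high in astrocyte-like cells and low in mature oligodendrocyte-like cells (7.17 CPM), although both carried the gene of its partner.

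Kcnj5, which encodes the G protein-gated channel Kir3.4, separated the myeloid classes. In microglia-like cells it was at 37.7, 44.01, 43.7, 31.8, 34.5 and 32.3 CPM in libraries 1 to 6. In the Clec7a Lyz2 class of libraries 4, 5 and 6 it was at 0.33, 0.819 and 0.689 CPM. No Clec7a Lyz2 value came near a microglia-like value. Pooled, the level was 40.2 CPM (39.1 to 41.3) against 0.77 CPM (0.533 to 1.08), and 7.84% against 0.15% of cells thinned to 2000 UMIs had a UMI. The other G protein-gated genes were low: Kcnj6 was at most 4.61 CPM and Kcnj9 at most 7.86 CPM in any compared class, and Kcnj3 was under the filter with 10 UMIs in all kept cells.

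The ATP-sensitive pores were found in rare cells. Kcnj11, which encodes Kir6.2, was at 36.7 CPM (24.4 to 53.02) in precursor-like cells, from 28 UMIs, and at most 1.32 CPM in the other compared classes. Abcc8, the gene of its sulfonylurea receptor and its neighbour on chromosome 1, was at 20.96 CPM (11.98 to 34.04) in the same cells. Kcnj8, which encodes Kir6.1, was at 759 CPM (665 to 863) in cluster 32, a group of 82 unnamed cells with mural and fibroblast markers (Rgs5 at 1525 CPM, Dcn at 1204 CPM). Its partner gene Abcc9, the neighbour of Kcnj8 on chromosome 4, was at 467 CPM (394 to 550.2) there. Kcnj8 was at most 0.388 CPM in the 9 compared classes. Abcc9 was also at 72.2 CPM (28 UMIs) in the endothelial-like cluster, and some Kcnj8 UMIs lay in clusters outside cluster 32 and the compared classes. In precursor-like cells and in cluster 32, each pore gene thus stood beside the gene of its regulatory subunit. Kcnj12 (Kir2.2) was at 60.7 CPM (41.2 to 86.2) in cluster 36, a group of 57 unnamed cells that carried Kcna1 and Dpp6 as well, against 7.86 CPM in precursor-like and 0.194 CPM (1 UMI) in mature oligodendrocyte-like cells.

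Two-pore channels carry background current. Kcnk13, which encodes THIK-1, a channel that sets the resting potential of microglia, was the leading two-pore gene of microglia-like cells. The windows of Kcnk13 and Kcnj5 are shown because both genes were highest in microglia-like cells, with the same motif in capitals.
Kcnk13, chr6:124971559-124971858 (GRCr8, + strand): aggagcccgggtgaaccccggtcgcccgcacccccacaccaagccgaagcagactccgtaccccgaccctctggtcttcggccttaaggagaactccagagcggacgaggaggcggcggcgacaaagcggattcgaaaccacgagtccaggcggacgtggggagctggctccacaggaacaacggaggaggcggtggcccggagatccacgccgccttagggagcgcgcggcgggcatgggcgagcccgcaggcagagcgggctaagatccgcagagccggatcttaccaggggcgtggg
Kcnj5, chr8:39011047-39011346 (GRCr8, − strand): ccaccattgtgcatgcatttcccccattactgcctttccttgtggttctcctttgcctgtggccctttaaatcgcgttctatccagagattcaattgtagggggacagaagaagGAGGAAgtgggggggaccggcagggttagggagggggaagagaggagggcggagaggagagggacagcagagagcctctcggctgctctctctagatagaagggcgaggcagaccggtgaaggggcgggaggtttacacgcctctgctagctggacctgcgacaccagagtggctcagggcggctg
The Kcnk13 window holds 0 copies of the motif and 33 CG dinucleotides and is 69% G or C. The Kcnj5 window holds 1 copy and 11 CG dinucleotides and is 59% G or C.

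Kcnk13 was at 75.5, 87.5, 91.9, 46.8, 71.7 and 57.3 CPM in microglia-like cells of libraries 1 to 6. In the Clec7a Lyz2 class it was at 19.5, 34.6 and 29.05 CPM in libraries 4, 5 and 6. The microglia-like class was higher in 3 of 3 libraries, the reverse of Kcnj2. Pooled, the level was 79.8 CPM (78.2 to 81.5) against 29.2 CPM (27.6 to 30.9), and 1.89 CPM in astrocyte-like cells. With cells thinned to 2000 UMIs, 15.7% of microglia-like cells, 5.43% of Clec7a Lyz2 cells and 0.355% of astrocyte-like cells had a Kcnk13 UMI.

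Kcnk1, which encodes TWIK-1, was the highest two-pore gene in astrocyte-like cells, at 104, 94.3, 89.2, 113, 123 and 121 CPM in libraries 1 to 6. Microglia-like cells of these libraries stood between 1.81 and 8.52 CPM, and T or NK-like cells between 14.5 and 43.3 CPM. The 3 ranges did not overlap. Pooled, Kcnk1 was at 112 CPM (110.0 to 115) in astrocyte-like and 25.9 CPM (21.5 to 30.97) in T or NK-like cells. Kcnk7, a two-pore gene whose product is not known to conduct alone, was at 52.9 CPM (46.5 to 59.9) in T or NK-like cells and at most 1.32 CPM in the other classes. Kcnk5 (TASK-2) was at 15.1 CPM (11.8 to 19.1) there and at most 1.94 CPM elsewhere. Kcnk6 (TWIK-2) was at 11.4 CPM (8.57 to 14.96) in T or NK-like, 10.4 CPM (9.78 to 10.95) in microglia-like and 9.21 CPM (8.34 to 10.2) in Clec7a Lyz2 cells, and all 3 intervals overlapped.

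Kcnk10, which encodes TREK-2, was at 44.8, 28.3 and 14.7 CPM in the Clec7a Lyz2 class of libraries 4, 5 and 6, and at 2.22, 1.99 and 2.00 CPM in microglia-like cells of the same libraries. It was higher in the Clec7a Lyz2 class in 3 of 3, although the class itself varied widely among libraries. It was at 31.4 CPM (20.1 to 46.8) in precursor-like and 30.95 CPM (22.7 to 41.2) in neuroblast-like cells, with overlapping intervals, and astrocyte-like cells held 0.661 CPM. Kcnk2 (TREK-1) reached 2.62 CPM at most in the 9 classes.

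Voltage-gated subunits of the Kv1 group led the mature oligodendrocyte-like cells. Kcna1, which encodes Kv1.1, was at 908, 1099.9, 1012, 1074 and 1259.5 CPM in libraries 1 to 5 there. In astrocyte-like cells Kcna1 was at 32.5, 20.1, 141, 28.1, 43.8 and 22.8 CPM in libraries 1 to 6. The values of these classes did not overlap. With cells thinned to 2000 UMIs, 86.3% (83.8 to 88.5) of mature oligodendrocyte-like cells had a Kcna1 UMI, against 37.9% of precursor-like, 6.65% of astrocyte-like and 0.632% of microglia-like cells. Library 3 stood apart in astrocyte-like cells: cluster 12, nearly all of which comes from that library, had 141 CPM of Kcna1.

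Kcna6, which encodes Kv1.6 and is the neighbour of Kcna1 on chromosome 4, followed the same class. It was at 289, 226, 160.3, 262 and 220.3 CPM in mature oligodendrocyte-like cells of libraries 1 to 5, against 0.576 to 1.88 CPM in astrocyte-like cells. Its window is shown as that of a gene of another lineage, with the motif searched above in capitals.
Kcna6, chr4:161262303-161262602 (GRCr8, − strand): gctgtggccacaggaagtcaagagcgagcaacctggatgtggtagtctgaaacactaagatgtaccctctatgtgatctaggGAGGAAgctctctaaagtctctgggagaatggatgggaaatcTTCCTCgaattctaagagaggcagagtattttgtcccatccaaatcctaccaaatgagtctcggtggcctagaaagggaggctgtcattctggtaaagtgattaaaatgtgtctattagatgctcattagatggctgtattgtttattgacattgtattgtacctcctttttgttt
The Kcna6 window holds 2 copies of the motif, as many as that of Kcnj2, has 3 CG dinucleotides and is 43% G or C. Among the genes shown, these letters were thus found in windows of both myeloid and oligodendrocyte genes.

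Kcna1 stood at 262 CPM (227 to 301) in precursor-like cells, 533 CPM (471 to 599.8) in cluster 36 and 1128 CPM (1099 to 1157) in mature oligodendrocyte-like cells. Kcna6 stood at 13.1 CPM (6.28 to 24.1), 23.5 CPM (12.1 to 41.05) and 224 CPM (211 to 237) in the same order. The first pair of Kcna6 intervals overlapped and the mature level lay above both. Kcna2, which encodes Kv1.2, a partner of Kv1.1 in axons, had 6.01 CPM in the mature oligodendrocyte-like class. Cluster 34, 64 of the mature oligodendrocyte-like cells, carried the myeloid gene Lyz2 at 3575 CPM against 207 CPM in cluster 17, together with Kcnj2 at 167 CPM against 28.8 CPM. Its Kcna1 level was 345 CPM against 1189 CPM, and without this cluster 5 channel genes were called high in the class and their summed level was 1624 CPM.

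Kcna2 was highest in astrocyte-like cells, with a sizeable level in microglia-like cells. Its level was 92.7, 87.5, 64.7, 75.3, 69.9 and 72.5 CPM in astrocyte-like cells of libraries 1 to 6, and 54.8, 60.7, 39.8, 46.03, 39.6 and 33.3 CPM in microglia-like cells. Astrocyte-like cells were higher in 6 of 6 libraries. The microglia-like level was 45.9 to 69.3% of the astrocyte-like level within libraries, where Slc1a2 was 2.20 to 7.91%, and T or NK-like cells had 3.12 to 15.9% of the astrocyte-like Kcna2 level. Kcna3 (Kv1.3), a channel known in lymphocytes and activated microglia, was at 70.3, 62.7 and 40.9 CPM in the Clec7a Lyz2 class of libraries 4, 5 and 6 and at 29.3, 28.8 and 24.8 CPM in microglia-like cells there. It was higher in the Clec7a Lyz2 class in 3 of 3. Pooled, Kcna3 was at 55.03 CPM (39.7 to 74.4) in precursor-like cells, 54.6 CPM (52.4 to 56.8) in the Clec7a Lyz2 class and 20.9 CPM (16.98 to 25.5) in T or NK-like cells, so the first pair could not be ordered.

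**Figure D3:**
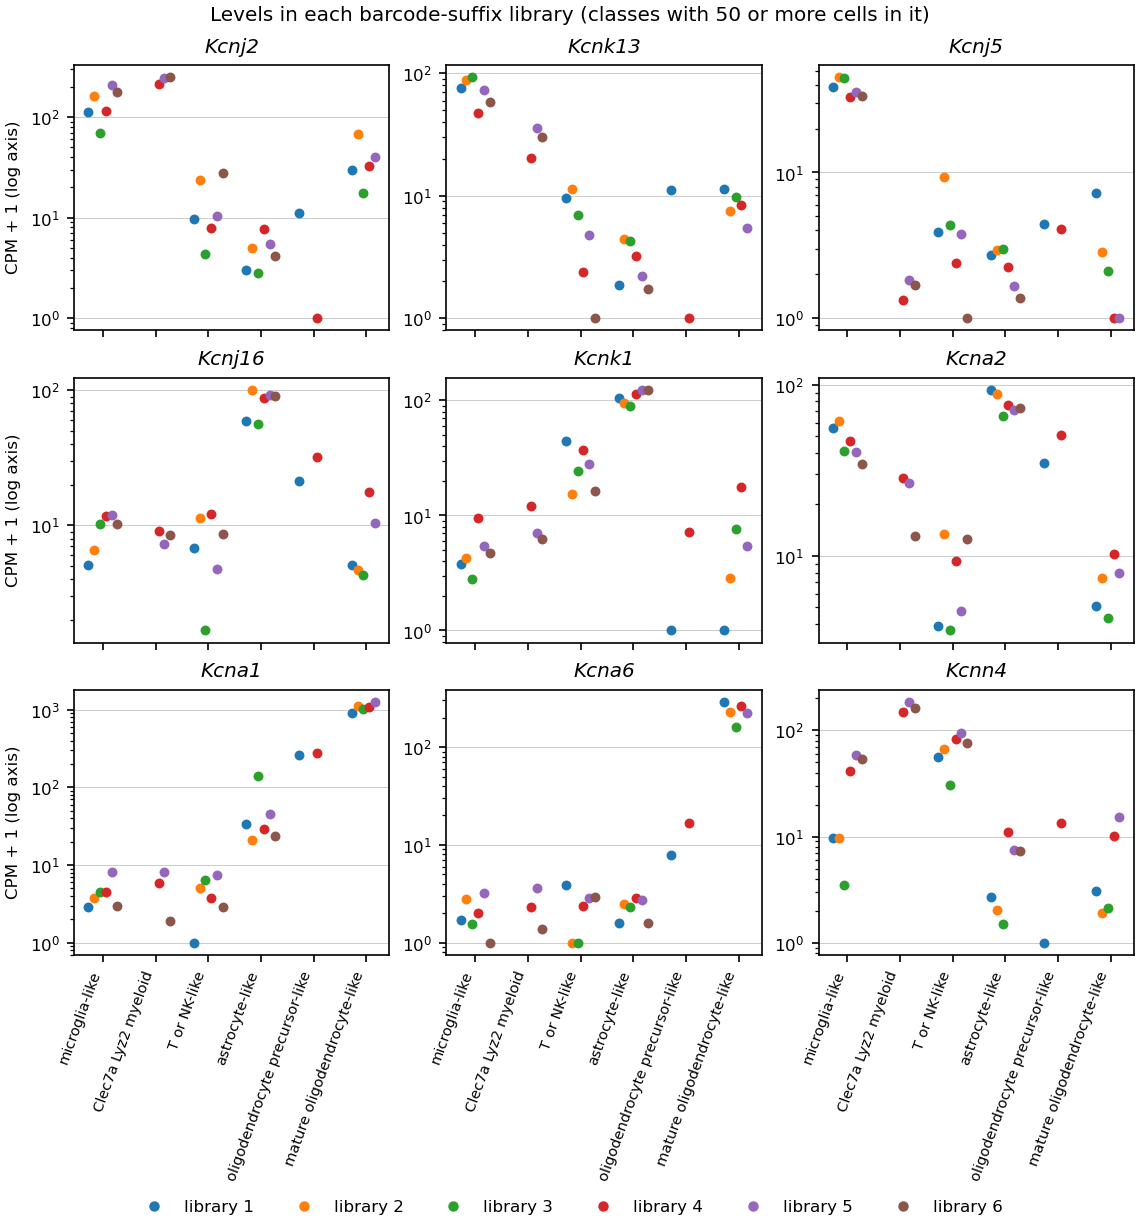
Levels (CPM + 1, log axis) of 9 channel genes in each barcode-suffix library (1 point a library), by class, where the class has at least 50 cells in the library. Kcnj5 and Kcnk13 stand high in microglia-like cells, Kcnj16 in astrocyte-like cells and Kcna1 in mature oligodendrocyte-like cells in every library shown, while Kcnn4 in microglia-like cells spreads from 2.50 to 57.5 CPM.

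The other Kv pores were mainly genes of precursor-like and astrocyte-like cells. Of the 14 Kv1 to Kv4 genes past the filter, 11 were called high in precursor-like cells, 6 in astrocyte-like cells, 4 in neuroblast-like cells and 0 in microglia-like cells, where 20.6%, 14.4%, 15.1% and 4.93% of all genes were. Kcnd2 (Kv4.2, an A-type channel) was at 143 CPM (117 to 172) in precursor-like and 35.7 CPM (34.4 to 37.04) in astrocyte-like cells. Kcnd3 (Kv4.3) was at 56.3 CPM (40.8 to 75.9) against 0.699 CPM. The Kv3 gene Kcnc4 was higher in astrocyte-like cells, at 46.1 CPM (44.6 to 47.6) against 18.3 CPM (10.03 to 30.8). Lower levels in precursor-like cells were those of Kcnc1 (23.6 CPM, 18 UMIs), Kcna4 (15.7 CPM, 12 UMIs) and Kcnc2 (6.55 CPM, 5 UMIs). In the libraries with at least 50 precursor-like cells, Kcnd2 was at 191 and 128 CPM in libraries 1 and 4. In precursor-like cells, 11 of 14 cycling markers and 3 of 13 mature neuron markers were at least 2-fold above the median of the 9 classes with 10 CPM added, and 4 cycling markers were so against the median of all clusters with detection in at least 10% of cells. Among the neuron markers, the levels were Snap25 73.4 CPM, Rbfox3 20.96 CPM, Slc17a7 0 CPM, and the part of other cells in these levels was not tested.

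Of the 10 accessory subunit genes past the filter, 4 were called high in precursor-like and 3 in astrocyte-like cells, where 20.6% and 14.4% of all genes were. Kcnip3, which encodes KChIP3, a calcium sensor that binds Kv4 channels and is also known as the repressor DREAM, was at 279 and 302 CPM in libraries 1 and 4. Pooled, its level in precursor-like cells was 293 CPM (256 to 335) and its level in the other 8 classes was at most 3.29 CPM. With cells thinned to 2000 UMIs, 44.8% (36.6 to 53.3) of precursor-like cells had a Kcnip3 UMI, against 0.355% of astrocyte-like and 0.115% of mature oligodendrocyte-like cells. In cluster 36 Kcnip3 was at 5.87 CPM (3 UMIs), beside Kcna1 at 533 CPM. Kcnip1 and Kcnip2, the genes of the related KChIP1 and KChIP2, were instead highest in astrocyte-like cells, at 45.3 and 46.97 CPM. Dpp6 and Dpp10, peptidase-like partners of Kv4 that the choice of genes does not cover, were at 257 CPM (222 to 295) and 47.2 CPM (33.03 to 65.3) in precursor-like cells. Dpp6 was at 196 CPM (159 to 238) in cluster 36 against 2.71 CPM in the mature oligodendrocyte-like class. Genes of Kv4 pores (Kcnd2, Kcnd3) and of their partners (Kcnip3, Dpp6, Dpp10) were thus measured together in precursor-like cells.

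Further accessory genes each had a leading class. Kcnmb4, a BK channel subunit of the brain, was at 52.4 CPM (37.4 to 71.4) in precursor-like cells and at most 4.10 CPM elsewhere. Kcnab2, a Kv1 beta subunit, was at 16.4 CPM (12.9 to 20.5) in T or NK-like cells and at most 3.43 CPM elsewhere, and Kcnab1 at 11.8 CPM (9 UMIs) in precursor-like cells. Kcne4 reached 5.04 CPM (26 UMIs) in the mature oligodendrocyte-like class and 84.4 CPM (55.1 to 124) in cluster 32. Among the silent subunits, Kcng2 (Kv6.2) was at 24.7, 25.96, 24.2, 17.1, 24.7 and 21.01 CPM in microglia-like cells of libraries 1 to 6. Its level in the Clec7a Lyz2 class was 18.7, 22.2 and 18.8 CPM in libraries 4, 5 and 6. The ranges overlapped and the order of these classes differed between libraries, unlike Kcnj5 and Kcnk13. Kcng4 (Kv6.4) was at 39.8 CPM (38.4 to 41.2) in astrocyte-like cells and at most 10.3 CPM in the other classes.

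Among the calcium-activated channels, Kcnn4, which encodes KCa3.1, was highest in the Clec7a Lyz2 class. Its level there was 149, 185 and 162 CPM in libraries 4, 5 and 6. In T or NK-like cells Kcnn4 was at 54.9, 66.2, 29.4, 82.3, 93.6 and 74.98 CPM in libraries 1 to 6, and in microglia-like cells it ranged from 2.50 to 57.5 CPM. The Clec7a Lyz2 class was above microglia-like cells in 3 of 3 and above T or NK-like cells in 3 of 3 libraries. Pooled, 167 CPM (163 to 171) in the Clec7a Lyz2 class compared with 63.2 CPM (56.2 to 70.9) in T or NK-like cells, 72.99 CPM (61.95 to 85.4) in the cycling cluster and 14.5 CPM (13.9 to 15.2) in microglia-like cells. With cells thinned to 2000 UMIs, 28.1% of Clec7a Lyz2 cells had a UMI, against 1.32% of astrocyte-like cells.

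The small-conductance gene Kcnn2 (SK2) was at 119, 118, 96.2, 103, 101 and 100.0 CPM in astrocyte-like cells of libraries 1 to 6, a narrow range. It was at 44.5 CPM (30.8 to 62.2) in precursor-like cells, 64.6 CPM (44.5 to 90.7) in cluster 36 and 4.07 CPM in mature oligodendrocyte-like cells. Kcnn3 (SK3) was at 7.18 CPM and Kcnma1 (BK) at 37.4 CPM (36.1 to 38.8) in astrocyte-like cells, with Kcnma1 at 30.1 CPM (19.1 to 45.2) in precursor-like cells. Of the sodium-activated pair, Kcnt1 was at 44.5 CPM (30.8 to 62.2) in precursor-like and 9.90 CPM in astrocyte-like cells, and Kcnt2 at 11.1, 10.6 and 2.86 CPM in the Clec7a Lyz2 class of libraries 4, 5 and 6.

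Kcnq3 (Kv7.3), part of the neuronal M current, was at 68.1, 73.9, 47.5, 47.99 and 69.3 CPM in mature oligodendrocyte-like cells of libraries 1 to 5, above astrocyte-like cells in 5 of 5. Pooled, it was at 65.1 CPM (58.3 to 72.5) there, 24.9 CPM (14.99 to 38.9) in precursor-like and 13.2 CPM in astrocyte-like cells. Kcnq5 was at 20.96 CPM (16 UMIs) in precursor-like cells. Of the 7 EAG genes past the filter, 3 were called high in precursor-like cells, against 20.6% of all genes. Among them were Kcnh8 at 20.96 CPM (16 UMIs) and Kcnh7 at 10.5 CPM (8 UMIs). Kcnh8 had 20 UMIs over all kept cells, so it passed the filter only through this class.

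Astrocyte-like clusters differed among themselves in the channel genes. Cluster 8 (2625 cells) had Kcnj16 at 102, 158, 159.8, 184 and 163 CPM in libraries 1, 2, 4, 5 and 6, against 19.8, 51.98, 39.6, 38.7 and 35.2 CPM in cluster 7 (2833 cells). Cluster 8 was above cluster 7 in 5 of 5 libraries, with no overlap. Kcnd2 had the same direction in 5 of 5, at 95.4, 63.2, 49.8, 86.7 and 73.6 CPM against 50.3, 6.74, 7.91, 33.2 and 23.5 CPM, with an overlap between libraries. Kcna1 had the opposite direction in 5 of 5, at 5.96, 4.57, 9.06, 14.5 and 7.96 CPM in cluster 8 against 63.2, 35.9, 49.6, 68.2 and 36.7 CPM in cluster 7. Kcnn2 was also lower in cluster 8 in 5 of 5, at 83.5, 78.3, 72.3, 63.6 and 65.2 CPM against 173, 157, 144, 128 and 131 CPM. The inward rectifier gene thus had the opposite pattern to the SK2 and Kv1.1 genes. Pooled, Kcnj16 was at 163 CPM (158 to 168) against 39.4 CPM (37.2 to 41.7), and Kcna1 at 9.45 CPM (8.29 to 10.7) against 51.6 CPM (49.1 to 54.3). Kcnma1 was at 40.7 CPM (38.3 to 43.3) and 39.9 CPM (37.6 to 42.2). Both clusters carried astrocyte markers, with Aqp4 at 1794 CPM and 2002 CPM and Gfap at 1132 CPM and 1827 CPM in clusters 8 and 7. The clusters were built without the channel genes but from the same cells, so these differences are a description.

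**Figure D4:**
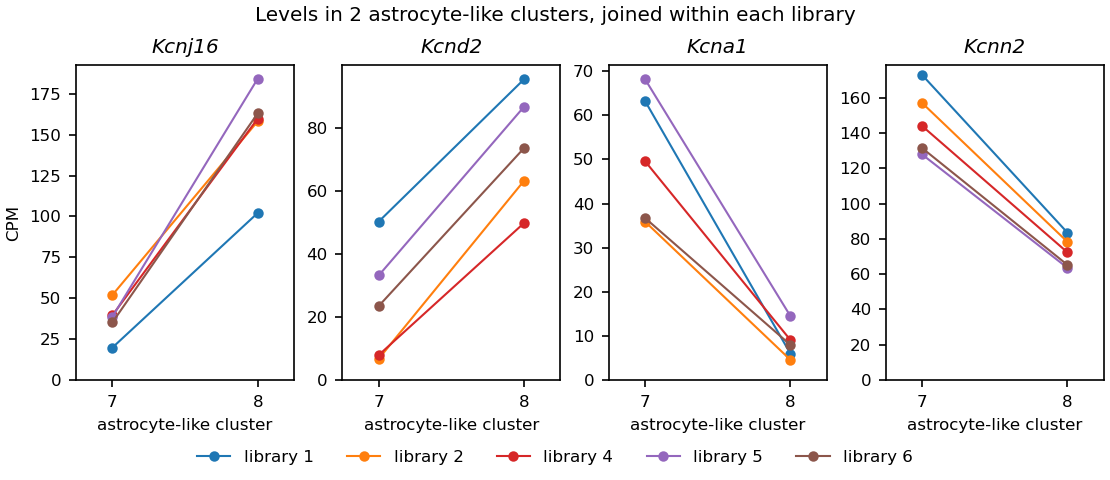
CPM of Kcnj16, Kcnd2, Kcna1 and Kcnn2 in astrocyte-like clusters 7 and 8, with a line for each of the 5 libraries that have at least 50 cells in both. Kcnj16 is higher in cluster 8 and Kcna1 higher in cluster 7 in all 5 libraries shown.

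The 4 T or NK-like clusters differed in the levels of channel genes. They were built without these genes but from the same cells, so the differences are a description. Clusters 21 (330 cells) and 24 (219 cells) carried the T cell gene Cd3e at 692 CPM and 592 CPM. Cluster 22 (287 cells) carried the cytotoxic gene Gzma at 3412 CPM with Cd3e at 4.43 CPM, and cluster 33 (80 cells) carried Gzma at 3200.0 CPM with Cd3e at 160.5 CPM and the proliferation gene Mki67 at 1135 CPM. Kcnn4 was at 83.03 CPM (69.4 to 98.5) in cluster 21 and 137 CPM (114 to 162) in cluster 24, against 6.20 CPM (2.49 to 12.8) in cluster 22 and 23.97 CPM (15.2 to 35.96) in cluster 33. Kcnk1 was at 53.1 CPM (40.5 to 68.4) and 47.9 CPM (35.1 to 63.9) in clusters 22 and 33, against 5.70 CPM (2.61 to 10.8) and 5.18 CPM (1.68 to 12.1) in clusters 21 and 24. The intervals of the 2 cluster pairs did not overlap for either gene, and the order was opposite. Kcnk7 was at 97.4 CPM and 80.2 CPM in clusters 22 and 33, 36.8 CPM in cluster 21 and 0 in cluster 24. Within library 3 alone, Kcnn4 was at 51.2, 79.9 and 1.96 CPM and Kcnk1 at 0, 7.61 and 37.3 CPM in clusters 21, 24 and 22.

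**Figure D5:**
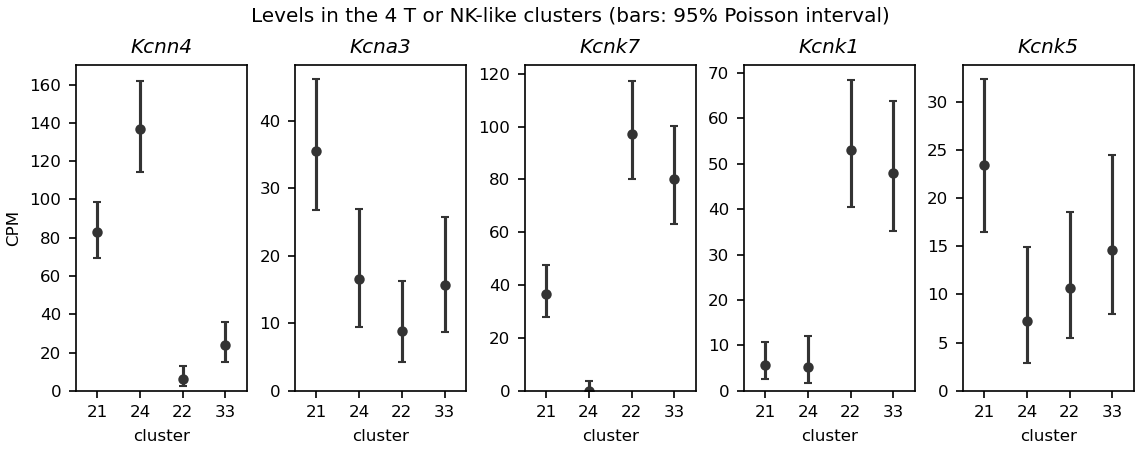
CPM (points) of Kcnn4, Kcna3, Kcnk7, Kcnk1 and Kcnk5 in the 4 T or NK-like clusters, pooled over libraries, with exact 95% Poisson intervals (bars). Kcnn4 is higher in clusters 21 and 24, and Kcnk1 in clusters 22 and 33.

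Neuroblast-like cells had Kcna1 at 68.5 CPM (55.96 to 82.98), Kcnk10 at 30.95 CPM, Kcnd3 at 17.1 CPM, Kcnc1 at 10.5 CPM and the TASK-1 gene Kcnk3 at 7.24 CPM (11 UMIs). Of the cycling markers, 13 of 14 were at least 2-fold above the median of the 9 classes there, with 10 CPM added. The same held for 6 of 8 ependymal markers, of which 0 passed against the median of all clusters with detection in at least 10% of cells. Neutrophil-like cells held 95 channel UMIs in all, of which 31 were Kcnj2. The other 4 genes called high there rested on few UMIs: Kcng4 on 3, and Kcnip2, Kcnj16 and Kcnk1 on 6 each. Without library 4, 2 channel genes were called high in neutrophil-like cells, and 3 without library 1 or library 2. The cycling cluster had the myeloid genes Kcnj2, Kcnn4, Kcnk13 (32.5 CPM) and Kcng2 (17.4 CPM) called high.

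Lists of channels known in a cell type were counted in the class they name, and were drawn up with earlier results of these data known. The shares of all genes called high to read beside these counts are 20.6% in precursor-like, 14.4% in astrocyte-like, 8.67% in mature oligodendrocyte-like, 6.85% in T or NK-like, 5.22% in Clec7a Lyz2 and 4.93% in microglia-like cells. The medians over all genes are 0.27 in precursor-like, 0.03 in astrocyte-like and 0.00 in the other 4 of these classes. Of the 9 genes known in microglia or macrophages, 3 were called high in microglia-like cells and 5 in the Clec7a Lyz2 class, with list medians of 0.00 and 1.03 on the log2 scale. Of the 7 known in astrocytes, 3 were high in astrocyte-like and 4 in precursor-like cells (list medians 0.00 and 1.03). Of the 8 known in the oligodendrocyte line, 4 were high in precursor-like, 3 in mature oligodendrocyte-like and 5 in astrocyte-like cells (list medians 0.99, -0.02 and 1.30). Of the 3 lymphocyte genes past the filter, 2 were high in T or NK-like cells and 2 in the Clec7a Lyz2 class (list medians 1.80 and 1.22). Of the 18 genes known in neurons that passed, 15 were high in precursor-like cells and 9 in astrocyte-like cells, with list medians of 1.93 and 0.82. Of the 6 vessel genes past the filter, 2 were high in precursor-like cells, and none of the 9 classes was a vessel class.

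Other genes of potassium handling were counted in the same way. Of the 12 sodium-potassium pump genes, 5 were high in astrocyte-like cells (14.4% of all genes) and 6 in precursor-like cells (20.6% of all genes). Atp1b2 was at 1194 CPM in astrocyte-like cells, the pump subunit Atp1b3 at 367 CPM in microglia-like cells and the regulator Fxyd5 at 1036 CPM in the Clec7a Lyz2 class. Fxyd1 was at 320.5 CPM in astrocyte-like, Atp1b1 at 354 CPM in mature oligodendrocyte-like cells, and Fxyd6 and Fxyd7 at 99.6 and 58.96 CPM in precursor-like cells. Of the 9 cation-chloride cotransporter and kinase genes past the filter, 2 were high in mature oligodendrocyte-like cells (8.67% of all genes), where Slc12a2, the cotransporter NKCC1, was at 964 CPM and its kinase gene Stk39 at 176 CPM. The kinase gene Wnk1 was at 278 CPM there and Slc12a4 at 85.2 CPM in precursor-like cells. Of the 8 channel partner genes past the filter, 4 were high in precursor-like and 2 in astrocyte-like cells, against the same 20.6% and 14.4%. Of the 2 HCN pacemaker genes past the filter, Hcn2 had 36.8 CPM in the mature oligodendrocyte-like class.

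Of the 87 genes, 19 had fewer than 20 UMIs in the kept cells. Kcne1, Kcnk15 and Kcnmb1 had 0 UMIs among 45393 cells, which allows a share of cells with a UMI of up to 0.00661%. Kcna10, Kcnk9, Kcnk18, Kcnu1 and Kcnv2 had 1 UMI each, Kcnmb3 had 2, Kcnmb2 3, Kcnh5 5 and Kcng3 6. Kcnip4, Kcnj1 and Kcnq1 had 8 each, Kcnj3 10, Kcnk16 14 and Kcnj4 17. These genes were not detectable, or were at the edge of detection, at this depth.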

How the data were processed

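Single-cell libraries of 6 rat hippocampus samples were used. The authors deposited a single matrix of raw UMI counts made with Cell Ranger 7.0.0 (per the file headers), and the submitters' processing notes name the build mm10, although the gene IDs are rat Ensembl IDs. The sources used here do not say how introns were treated, which annotation was used or whether depth was equalised between libraries. Columns of values left unused number 0.

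Barcodes under 500 UMIs or 200 genes, or above 20% mitochondrial UMIs, were dropped, which left 48704 of 58078. Doublets, scored against simulated sums of pairs of cells at a rate that grows with the barcodes of a library, were removed (3311, 6.80%). The kept cells had library medians of 4186 to 6483 UMIs. Counts were log-normalised, and 2000 variable genes without the channel genes, 30 components, 15 neighbours and Leiden clustering at resolution 1.0 gave 39 clusters (leidenalg 0.10.2, python-igraph 0.11.9, scikit-learn 1.9.0, SciPy 1.17.1; pandas 2.3.3 and NumPy 2.4.6 under Python 3.11.15). Names came from fixed markers. The scoring details were settled after seeing the data, and a rebuilt name can differ from the study's. Counts were summed per class, with 5 CPM added for ratios. The calling and the intervals were also run on simulated Poisson counts. These had 1 common profile for all classes, 1 raised class per changed gene and no free RNA. How the calling behaves in the real data was therefore not tested.

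The channel genes and lists were chosen with earlier results of these data known. Named genes are the 15 with the highest level, up to 5 with the largest ratio per class at 5 CPM or more, list members at 5 CPM or more, and genes outside the channel set at 50 CPM or more. Kcnj6, Kcnj8, Kcnj11, Kcnj12, Kcnh8, Kcnk2, Kcnmb4, Kcnt2, Kcnj10, Abcc8, Abcc9, Dpp10 and Hcn2 fall outside that rule and were chosen after their values were seen. Promoter windows come from RefSeq (GRCr8) and were available for 60 of the 87 genes. Alternatives covered the mitochondrial limit, doublets, naming, weighting, the CPM denominator, the added CPM, the gene filter, the reference class, thinning and each library left out. Some genes are counted with the rest but not reported here by name.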

Additional observations from a re-analysis of the deposited data

How the results depend on the processing

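The number of channel genes called high depended most on the reference of the ratio. Against the highest other class in place of the median, it was 14 in precursor-like cells, 6 in astrocyte-like cells, 3 in mature oligodendrocyte-like and T or NK-like cells, 2 in microglia-like cells, 1 in the Clec7a Lyz2 class and 0 in the cycling, neuroblast-like and neutrophil-like classes. This reference can only lower a count, as at most 1 class per gene can pass. Adding less CPM can only raise a count for any set of genes, and adding more can only lower it. With 1 CPM added the number was 25 in neuroblast-like, 11 in mature oligodendrocyte-like, 10 in T or NK-like, 9 in neutrophil-like and 8 in cycling cells. With 10 CPM added it was 5 in the Clec7a Lyz2 class and 3 in mature oligodendrocyte-like and neutrophil-like cells. With doublets kept it was 5, 3 and 2 in these classes. When cells took the name of their top marker score singly, it was 3 in microglia-like, mature oligodendrocyte-like, T or NK-like and neutrophil-like cells and 2 in neuroblast-like cells, and this naming gave no value for the Clec7a Lyz2 and cycling classes. With equal weight per library it was 3 in neutrophil-like cells. Leaving out each library in turn gave 26 to 29 in precursor-like, 17 in astrocyte-like, 6 to 8 in Clec7a Lyz2, 5 in microglia-like, 4 to 5 in mature oligodendrocyte-like, 6 to 9 in neuroblast-like, 5 to 6 in T or NK-like, 2 to 7 in neutrophil-like and 4 to 6 in cycling cells. The other 131 counts stayed within 1.5 times, including those without cluster 34, without cluster 15 and without cells whose barcode sequence occurs in another library, which were added after seeing the data. The share of all genes called high was taken in the main setting only, so the counts under the alternatives have no such share beside them. The cause of the changes was not otherwise tested.

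Of the log2 ratios of named genes, 518 kept their side of the 2-fold line, 26 fell under it (8 of them of Kcne4, the others of Kcna2, Kcna3, Kcnab1, Kcnc2, Kcnh7, Kcnj9 and Kcnk6) and 0 changed direction. No paired analysis was possible because the libraries could not be tied to the labelled samples, and the fit of irradiated against control samples was not run for the same reason. Depth limits the precursor-like, neuroblast-like and neutrophil-like values, many of which rest on fewer than 20 UMIs.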

Other observations

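Kcnn4, the gene of the calcium-activated channel KCa3.1, varied more among the 6 unassigned libraries than Kcnj2, Kcnk13, Kcnj5 and Kcna3 did in microglia-like cells. In microglia-like cells it was at 8.64, 8.78, 2.50, 40.5, 57.5 and 52.8 CPM in libraries 1 to 6, so libraries 1, 2 and 3 lay below libraries 4, 5 and 6 with a gap. The microglia-like cells of these libraries lay in different clusters: cluster 4 held most of those of libraries 4, 5 and 6, with Tmem119 at 655 CPM and Clec7a at 20.6 CPM, against 1289 CPM and 1.11 CPM in cluster 1. Within cluster 4, Kcnn4 was at 8.91, 5.63, 39.8, 55.2 and 49.7 CPM in libraries 1, 2, 4, 5 and 6. In astrocyte-like cells Kcnn4 was at 1.73, 1.02, 0.497, 10.02, 6.48 and 6.29 CPM in the same order and showed the same gap. T or NK-like cells, at 54.9, 66.2, 29.4, 82.3, 93.6 and 74.98 CPM, were also lower in libraries 1 to 3, with a smaller gap. The mix of T or NK-like clusters differed between libraries, and Kcnn4 was at 6.20 CPM in cluster 22. That cluster held 24 of 63, 15 of 78, 158 of 369, 29 of 118, 29 of 190 and 32 of 98 T or NK-like cells in libraries 1 to 6. Within cluster 21, Kcnn4 was at 51.2 and 103 CPM in libraries 3 and 5. The number of Clec7a Lyz2 cells moved with it: that class had 4, 15, 18, 1893, 3274 and 2636 cells in libraries 1 to 6. The part of these cells, or of their free RNA, in the Kcnn4 levels of other classes was not tested, and which libraries are irradiated is not known here.

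Kcnk13 and Kcnj5 had the reverse order in microglia-like cells, with smaller differences. Kcnk13 was at 75.5, 87.5, 91.9, 46.8, 71.7 and 57.3 CPM and Kcnj5 at 37.7, 44.01, 43.7, 31.8, 34.5 and 32.3 CPM in libraries 1 to 6. For both genes, each value of libraries 1, 2 and 3 was above each value of libraries 4, 5 and 6. Microglia-like cells of libraries 4, 5 and 6 lay mostly in cluster 4 and those of libraries 1, 2 and 3 mostly in other clusters. The part of this difference in clusters was not tested for these genes. Astrocyte-like cluster 15, nearly all from library 4, carried Lyz2 at 1697 CPM together with Kcnn4 at 35.8 CPM and Kcnj2 at 28.9 CPM.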
